A study of Homo sapiens with 4 samples.

Results

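Clone-named genes are rows of the count tables whose symbol is a sequencing-clone accession, such as AC015813.1, in place of a gene name. The prefixes AC, AL and AP come from the sequence archives in which the clones of the human genome project were deposited. The 89 genes described here were chosen by their symbol and by level: at least 150 counts in both shCtrl libraries or in both shFOXK2 libraries. They are 89 of 18329 clone-named rows and of 56655 rows in all. The counts themselves chose the genes, and 21 reached the minimum in both groups, 22 in shCtrl only and 46 in shFOXK2 only.

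The libraries were made from OVCAR5, an established ovarian cancer line labelled as ascites-derived and high grade serous. Cells were transduced with lentivirus, selected with puromycin, and carried either a nontargeting control hairpin (shCtrl, 2 libraries) or a hairpin against the transcription factor gene FOXK2 (shFOXK2, 2 libraries). Both groups thus share transduction and selection, and the comparison rests on a single line and a single FOXK2 hairpin. Nothing in the labels says whether the duplicates came from separate transductions, so p-values measure only the spread between these libraries.

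Most genes with clone names carry no assigned function. The naming scheme of the human gene catalogue gives such a name to a locus that has transcripts but no approved symbol, most often a long noncoding RNA, and also to pseudogenes and to candidate coding or readthrough loci. Many transcripts of this kind lie antisense to, upstream of or inside better-known genes, are kept in the nucleus, and are degraded there by the RNA exosome. The count tables give no biotype, and 0 of the 89 symbols were found in the gene tables used here, so whether each gene is noncoding could not be checked and no position or sequence is given.

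Library totals ran from 14284005 to 21950873 counts, so that 150 counts stood for 6.72 to 10.55 CPM, counts scaled to a common library total with trimmed-mean factors. Intervals of shares and floors of 3 counts address counting error only and leave out the spread between libraries. PCR reads without molecular identifiers are not independent molecules, so the intervals can be too narrow even for counting error. FOXK2 had 1796 and 1499 shCtrl counts against 1086 and 1084 in shFOXK2. Its log2 fold change was −0.36 (SE 0.25), which did not pass the quasi-likelihood test of edgeR (adjusted p = 0.257). The authors reported reduced FOXK2 in OVCAR5 cells with hairpins against it, as mRNA by qRT-PCR and as protein by western blot. In these 4 libraries the lower FOXK2 mRNA was not called, and protein was not measured in them. Whether they differ from those assays was not tested. The epithelial markers EPCAM, KRT8 and KRT18 were present in all 4 libraries, but CDH1, also epithelial, went from 459 and 260 counts to 13 and 24. The Müllerian lineage marker PAX8 was present (351 and 335 counts against 156 and 162, log2 fold change −0.88, adjusted p = 0.0263). Of the serous markers, WT1 had at most 2 counts in any library and MUC16 had 397 and 145 counts against 0 and 8. The markers CDH1 and MUC16 were thus lower in shFOXK2, with log2 fold changes of −4.02 (adjusted p = 5.12e-06) and −5.76. No test is given for MUC16, because its shFOXK2 counts alone would not have passed the filter on low counts. Among markers of other cells, PTPRC had at most 3 counts and COL1A1 had 324 and 215 against 226 and 229. ACTA2 had 26 and 31 against 5 and 18, and no test is given for the same reason as for MUC16. PECAM1 had 154 and 90 against 9 and 29 (log2 fold change −2.45, adjusted p = 0.000536). The part of these differences in the results below was not tested.

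The whole class of clone-named rows, taken without any minimum, was examined first, since its make-up does not depend on the counts. Clone-named rows took 0.346% of counts in shCtrl replicate 1 (95% Wilson interval 0.344 to 0.349) and 0.310% in replicate 2 (0.307 to 0.312). They took 0.575% (0.571 to 0.578) and 0.719% (0.715 to 0.723) in the shFOXK2 libraries. Both shFOXK2 libraries lay above both shCtrl libraries, and the mean shares were 0.328% ± 0.026 and 0.647% ± 0.102 (SD, n = 2 each), a ratio of 1.97. An exact 2-sided permutation test gave p = 0.33, the smallest value that 2 against 2 libraries can give. The 89 genes alone took 0.0959% ± 0.00484 and 0.178% ± 0.0183, and the remaining clone-named rows took 0.232% ± 0.0212 and 0.469% ± 0.0839. The ratio of the groups was 1.86 for the 89 genes and 2.02 for the remaining rows.

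More rows were detected in shFOXK2, with and without a clone name. At least 1 count was found for 5606 and 4728 clone-named rows in shCtrl and for 6255 and 7802 in shFOXK2, of which replicate 1 had the smallest total of counts. Rows without a clone name with a count numbered 20076 and 18996 for shCtrl, against 20525 and 22915 for shFOXK2. At least 10 counts in both shFOXK2 libraries with 0 in both shCtrl libraries were found for 53 clone-named rows, and the opposite pattern for 3. Among the 38326 other rows these numbers were 35 and 12. The most abundant of the 53, named after its values were seen, was AC245060.5 with 0 and 0 shCtrl counts against 131 and 278 in shFOXK2. Set against a floor of 3 counts per shCtrl library, AC245060.5 was at least 76.2-fold higher in shFOXK2. The next was AC092451.2, with 0 and 0 against 113 and 261 counts, at least 69.3-fold higher. Neither reached 150 counts in both shFOXK2 libraries, so neither is among the 89.

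**Figure D1:**
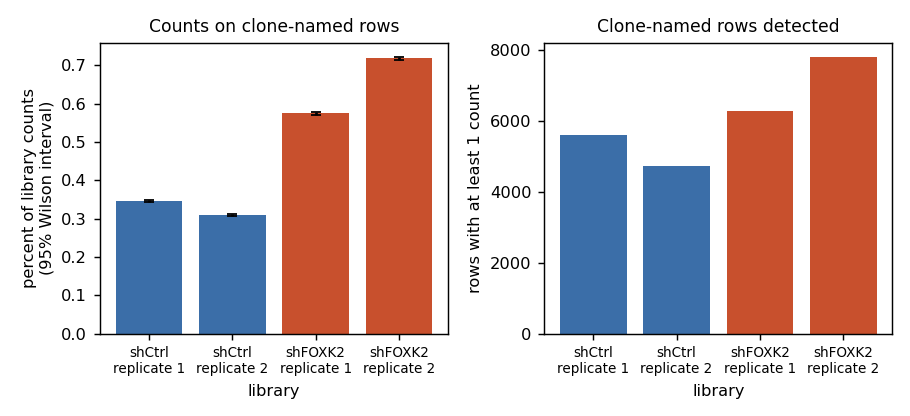
The left panel plots the percent of library counts on all 18329 clone-named rows with 95% Wilson intervals, and the right panel the number of those rows with at least 1 count, for each library. Both shFOXK2 libraries (0.575% and 0.719%) stand above both shCtrl libraries (0.346% and 0.310%), and they also hold more detected rows, as they did for rows without a clone name.

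A low-count filter kept 1803 clone-named rows for testing, of which 1096 (60.8%) passed an adjusted p of 0.05 between the groups. The filter can keep a sparse row through a single group, and the part of this in the calls was not tested beyond the other filters below. Of the 1803, 957 (53.1%) were higher in shFOXK2 and 139 (7.71%) were lower. Over all 16417 tested genes 48.4% were called, 25.7% higher and 22.7% lower, and over the 14614 tested genes without a clone name 46.8% were called, 22.3% higher and 24.5% lower. The median log2 fold change was 1.33 for the clone-named rows and −0.03 for the others. The excess in the share called depended on the filter and the test. The share was 44.9% of clone-named rows beside 44.1% of all genes with at least 10 counts required in every library, 17.1% beside 26.3% with no filter, and 23.9% beside 34.3% by DESeq2, which tested more sparse rows. The share called higher was 37.3%, 14.9% and 21.6% of clone-named rows in those fits, beside 22.5%, 14.0% and 16.5% of all genes, and the share called lower was 7.65%, 2.17% and 2.28%, beside 21.6%, 12.3% and 17.8%. Without the 89 genes the shares were close to these, with 905 of the 1714 remaining tested rows (52.8%) higher and 126 (7.35%) lower. Both shFOXK2 libraries lay above both controls in CPM for 1164 of the 1803 rows and below for 276. Groups did not overlap for 75.4% of all tested genes (39.2% above, 36.2% below) and for 74.8% of those without a clone name (36.1% above, 38.8% below).

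The clone-named rows are mostly sparse, so the calls were also counted within bands of mean log2 CPM. The bands still hold rows that passed the filter through a single group. They also include the 89 genes described here, and calls without these genes were counted only over the whole class. Among the sparsest genes, with a mean under 0, 57.6% of 748 clone-named rows and 34.2% of 988 other genes were called higher. Other genes thus also leaned upwards in that band, with 15.5% called lower, unlike those with a mean of 3 and over (20.5% higher, 26.2% lower). Among genes with a mean of 3 and over, 40 of 80 clone-named rows and 20.5% of 10083 others were called higher. Over the 5 bands the share called higher ran from 48.6% to 57.6% for clone-named rows and from 20.5% to 34.2% for other genes. The share called lower ran from 6.15% to 12.3% and from 15.5% to 26.2%. These are counts set side by side, and the difference between the classes was not tested. Base composition could not be computed for the clone-named rows, so its part was not tested.

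**Figure D2:**
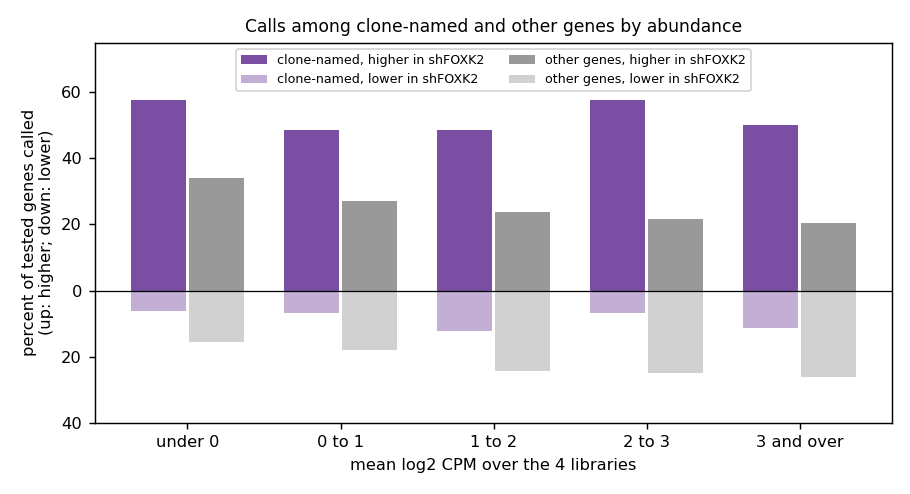
Bars show the percent of tested genes called higher (upwards) and lower (downwards) in shFOXK2 by the edgeR quasi-likelihood test, for clone-named rows and all other genes, in bands of mean log2 CPM over the 4 libraries. The clone-named bars for higher genes stand between 48.6% and 57.6% in every band, against 20.5% to 34.2% for other genes. The clone-named bars include the 89 genes described here.

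The counts were also split by archive prefix. Higher in shFOXK2 were 698 of 1272 tested AC rows (54.9%), 195 of 415 AL rows (47.0%) and 64 of 116 AP rows (55.2%), and lower were 104, 28 and 7, beside 25.7% higher and 22.7% lower over all tested genes. The 89 genes comprised 62 AC, 22 AL and 5 AP symbols, and whether the prefixes differed was not tested.

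The 21 genes with at least 150 counts in all 4 libraries were not chosen through one group, and their tests are read here against genes of like depth. Of these genes 8 passed an adjusted p of 0.05 (38.1%), beside 41.9% of the 8271 genes with at least 150 counts in all 4 libraries and 37.6% of the 4124 whose summed counts lay within the range of the 21. The share called was thus close to the background. By direction, 7 of the 21 were higher in shFOXK2 (background 18.1% of the 8271 genes) and 1 was lower (background 23.8%). Over the 4124 genes 17.5% were higher and 20.1% lower. The median log2 fold change was 0.41, against −0.08 over the 8271 genes. In 14 of the 21 the groups did not overlap in CPM, with shFOXK2 above in 10 and below in 4. Groups did not overlap for 72.5% of the 8271 genes (32.8% above, 39.7% below) and for 71.0% of the 4124 (33.8% above, 37.2% below).

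AL161431.1, described in other work on carcinomas as a long noncoding RNA (not checked here), showed the largest rise of the 21. It had 576 and 402 shCtrl counts against 1245 and 1145 in shFOXK2. Its level rose from 25.4 ± 0.549 to 75.2 ± 17.4 CPM (mean and SD of 2 libraries here and below; log2 fold change 1.56, SE 0.27, adjusted p = 0.000394). Both shFOXK2 libraries lay far above both shCtrl libraries, and the shFOXK2 libraries differed from each other more than the controls did.

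AC103702.2 had 153 and 160 shCtrl counts against 320 and 389 in shFOXK2, and rose from 8.41 ± 2.20 to 21.9 ± 0.796 CPM (log2 fold change 1.39, SE 0.30, adjusted p = 0.00205). AC015712.2 had 411 and 224 counts against 498 and 869, and rose from 16.2 ± 3.16 to 41.4 ± 9.0 CPM (1.35, SE 0.28, adjusted p = 0.00164). For both genes the groups stood apart, and both calls held when any one library was left out (adjusted p at most 0.012).

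Smaller rises passed the threshold in 3 genes with tight replicates. AC006001.3 had 255 and 190 shCtrl counts against 294 and 389 in shFOXK2, and its log2 fold change was 0.85 (SE 0.28, adjusted p = 0.0208). AC125807.2 had 385 and 307 against 425 and 579 counts, with 0.76 (SE 0.26, adjusted p = 0.0283). AC073869.1 had 428 and 356 against 479 and 585 counts, with 0.67 (SE 0.26, adjusted p = 0.0474). Blocking on replicate number, the adjusted p was 0.0617 for AC125807.2 and 0.0997 for AC073869.1, and neither was called by DESeq2 (adjusted p = 0.0557 and 0.102). With no filter on low counts none of the 3 was called (adjusted p from 0.0678 to 0.175). Leaving out either shCtrl library or shFOXK2 replicate 2 also ended the call of all 3 genes, with adjusted p from 0.0569 to 0.175, and leaving out shFOXK2 replicate 1 ended it for AC125807.2 and AC073869.1 (0.0707 and 0.168).

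AL365181.2 and AL365181.3 are the single pair among the 89 that share a clone, and they are both among the 21. AL365181.3, which had the second largest sum of counts, had 1107 and 840 shCtrl counts against 752 and 932 in shFOXK2, with 51.0 ± 1.91 and 52.0 ± 1.18 CPM (log2 fold change 0.03, SE 0.24, adjusted p = 0.933). AL365181.2 had 435 and 290 counts against 420 and 1067, with 18.8 ± 1.01 and 44.1 ± 20.6 CPM (1.23, SE 0.32, adjusted p = 0.0064). The shFOXK2 libraries of AL365181.2 lay far apart, and without shFOXK2 replicate 2 its log2 fold change was 0.62 (adjusted p = 0.178). Whether the pair differed in response was not tested.

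AC055811.4 was the single fall that passed among the 21. It had 500 and 372 shCtrl counts against 153 and 188 in shFOXK2, and fell from 22.8 ± 0.538 to 10.5 ± 0.303 CPM (log2 fold change −1.11, SE 0.28, adjusted p = 0.00495). The replicates of each group nearly coincided, the groups were well apart, and the call held under every alternative run. AC099850.3, also described in work on carcinomas as a long noncoding RNA (not checked here), had 410 and 289 counts against 218 and 193. Its log2 fold change was −0.49 (SE 0.29, adjusted p = 0.185). Its groups did not overlap in CPM, but the difference did not pass the test. AC018647.2 had 682 and 463 against 289 and 462 counts (−0.38, SE 0.26, adjusted p = 0.257).

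The gene with the most counts of the 89, AC092171.2, had 1233 and 984 shCtrl counts against 786 and 891 in shFOXK2. Its levels were 58.3 ± 4.26 and 52.1 ± 4.46 CPM, and its log2 fold change was −0.16 (SE 0.25, adjusted p = 0.614). AC016747.1 had 793 and 758 counts against 620 and 828, and stood at 41.4 ± 8.25 and 44.5 ± 1.34 CPM, with the shFOXK2 libraries lying between the control libraries (0.11, SE 0.26, adjusted p = 0.758). AL391244.1 had 333 and 277 counts against 227 and 262, or 16.1 ± 1.65 and 15.2 ± 1.11 CPM (−0.08, SE 0.28, adjusted p = 0.827). These genes had overlapping or nearly touching groups, and none of their differences passed the test.

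AP000769.1 had 253 and 217 shCtrl counts against 275 and 349 in shFOXK2. Both shFOXK2 libraries lay above both controls, but the test did not pass (log2 fold change 0.63, SE 0.28, adjusted p = 0.0775). AC244153.1 was split by its shFOXK2 libraries, at 324 and 859 counts, against 439 and 452 in shCtrl. The log2 fold change was 0.55 (SE 0.34, adjusted p = 0.194). It was −0.10 with shFOXK2 replicate 2 left out and 0.96 (adjusted p = 0.0223) with shFOXK2 replicate 1 left out, so that a single library set its direction. The remaining 5 genes of the 21 (AC102953.2, AL390719.1, AC005288.1, AC007996.1 and AC093323.1) had log2 fold changes from 0.03 to 0.55 and adjusted p from 0.118 to 0.948.

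**Figure D3:**
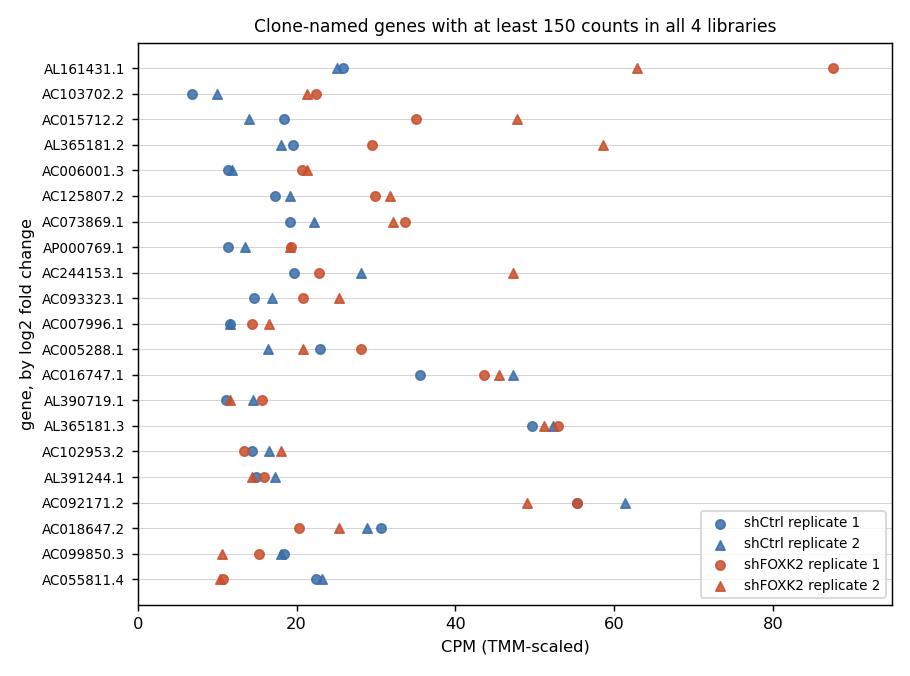
Each row is one of the 21 clone-named genes with at least 150 counts in all 4 libraries, ordered by log2 fold change, and each point is the CPM of one library. AL161431.1, at 62.9 and 87.5 CPM in shFOXK2, stands farthest from its shCtrl libraries (25.0 and 25.8), while AL365181.3 and AC092171.2 keep all points between 48.9 and 61.3 CPM.

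The 46 genes that reached the minimum in shFOXK2 only are described without tests, because passing through the one group in which a gene is high already makes the groups differ. Mean CPM in shCtrl ran from 0.112 to 13.5 with a median of 4.43, and mean CPM in shFOXK2 ran from 9.68 to 72.5 with a median of 17.7. The ratio of the means was over 2 for 45 of the 46 and over 4 for 28. In all 46 the groups did not overlap in CPM. Over all tested genes 39.2% had both shFOXK2 libraries above both shCtrl libraries, and nothing is read from that comparison here.

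The genes of this set with the most counts were AC015813.1 and AC021078.1, and both were uneven in the controls. AC015813.1 had 404 and 103 shCtrl counts against 848 and 1553 in shFOXK2, or 12.3 ± 8.27 and 72.5 ± 18.2 CPM. The log2 fold change was 2.55, with 3.46 when shCtrl replicate 1 was left out and 1.93 when shCtrl replicate 2 was. AC021078.1 had 466 and 98 counts against 739 and 1391, or 13.5 ± 10.5 and 64.2 ± 17.3 CPM, with log2 fold changes of 2.24 over all libraries, 3.36 without shCtrl replicate 1 and 1.55 without shCtrl replicate 2. In each gene shCtrl replicate 1 lay between shCtrl replicate 2 and the shFOXK2 libraries.

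The largest ratios belonged to genes that were near the limit of detection in shCtrl. AC006141.1 had 5 and 0 shCtrl counts against 164 and 337 in shFOXK2, a ratio of 118 per library total with a 95% counting interval of 50.5 to 367. AL136164.3 had 6 and 2 counts against 158 and 266, a ratio of 62.7 (31.5 to 146). These ratios rest on 5 and 8 control counts in all.

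AC090673.1 had 13 and 4 shCtrl counts against 257 and 220 in shFOXK2, or 0.416 ± 0.236 and 15.1 ± 4.23 CPM, a ratio of 36.2. AP000648.3 had 29 and 6 counts against 248 and 269, or 0.837 ± 0.655 and 16.1 ± 1.88 CPM, a ratio of 19.2. Both were at under 1 CPM on average in shCtrl and well above 10 in shFOXK2. AL136370.1 had 29 and 13 counts against 223 and 435, or 1.06 ± 0.347 and 19.8 ± 5.81 CPM, a ratio of 18.8. AL662795.2 had 86 and 21 counts against 398 and 536, or 2.58 ± 1.80 and 28.7 ± 1.04 CPM, a ratio of 11.1. In all 4 genes shCtrl replicate 1 was above replicate 2 also in CPM. With shCtrl replicate 1 left out the log2 fold change went from 5.09 to 5.84 for AC090673.1, from 4.19 to 5.37 for AP000648.3 and from 3.44 to 4.41 for AL662795.2. With shCtrl replicate 2 left out it was 4.60, 3.55 and 2.82.

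Unevenness of the controls was common in this set. For 11 of the 45 genes (24.4%) with counts in both shCtrl libraries, replicate 1 was more than 2-fold above replicate 2 in CPM, and for 0 genes was replicate 2 more than 2-fold above replicate 1. Besides the genes given above these were AC048341.2 (351 and 98 counts), AC005034.3 (141 and 31), AC092747.4 (63 and 13), AC093297.2 (66 and 10) and AC006978.1 (55 and 10). Replicate 1 was more than 2-fold above replicate 2 for 14.2% of all tested clone-named rows and 6.95% of tested genes without a clone name. The part of this spread in the ratios was not tested beyond leaving out that library. The shFOXK2 replicates of the 46 lay within 2-fold of each other.

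Other genes of the set had even replicates in both groups. AC124798.1 had 41 and 32 shCtrl counts against 320 and 351 in shFOXK2, or 1.92 ± 0.110 and 20.9 ± 2.27 CPM. AC243964.3 had 120 and 109 counts against 446 and 590, or 6.08 ± 0.998 and 31.9 ± 0.748 CPM. AL049840.4 had 150 and 101 counts against 359 and 450, or 6.51 ± 0.305 and 25.0 ± 0.365 CPM. These 3 genes were picked after their values were seen, as examples in which the replicates nearly coincide and the groups differ by a ratio of 3.84 to 10.9.

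**Figure D4:**
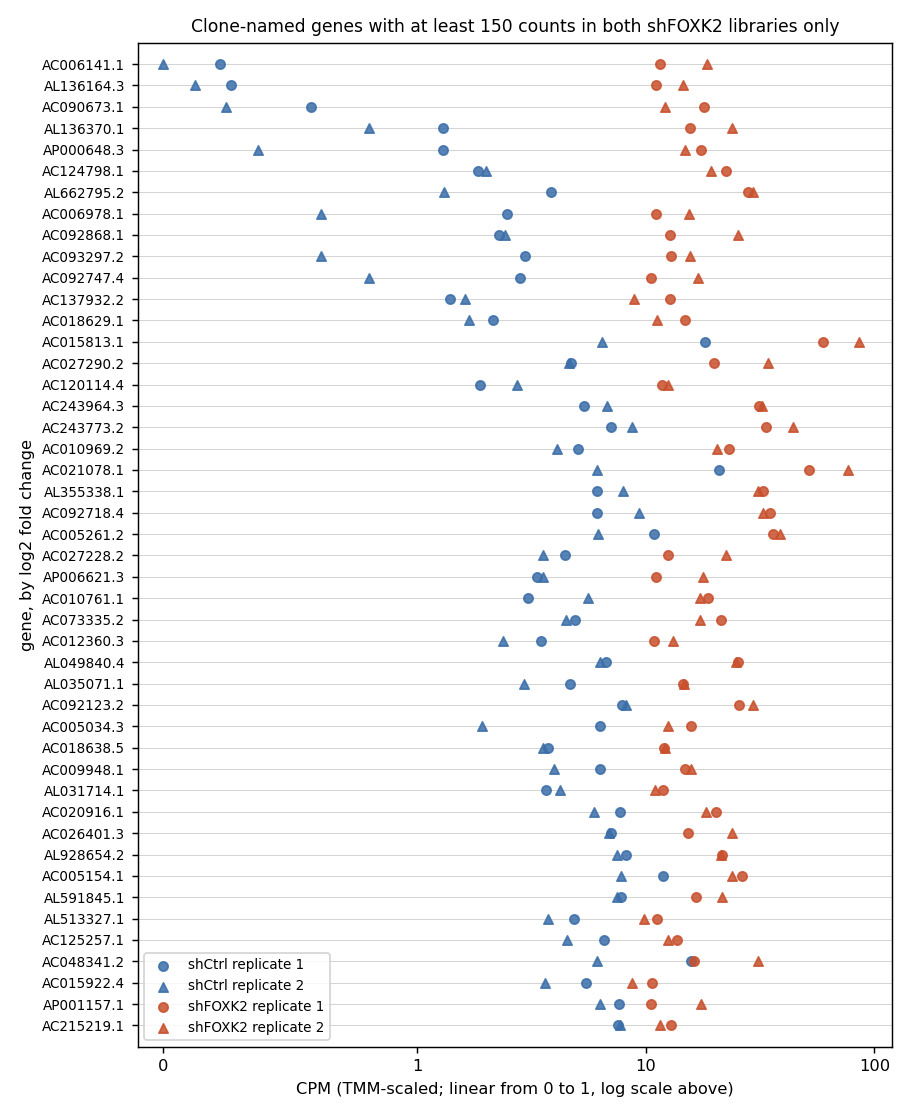
Each row is one of the 46 genes with at least 150 counts in both shFOXK2 libraries only, and each point is the CPM of one library on an axis that is linear from 0 to 1 and logarithmic above. The shFOXK2 points lie to the right of the shCtrl points in every row, as the choice of genes favours, and the spread between the shCtrl points is wide for rows such as AP000648.3 and AC093297.2.

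The 22 genes that reached the minimum in shCtrl only are also described without tests. Mean CPM ran from 8.82 to 21.0 in shCtrl and from 2.21 to 13.8 in shFOXK2. The ratio of shFOXK2 to shCtrl had a median of 0.548 and was under 0.5 for 9 of the 22. In 17 genes shFOXK2 lay below both controls in each library, in 4 the groups overlapped, and in 1, AC090204.1, the shFOXK2 libraries lay above. Over all tested genes 36.2% had shFOXK2 below and 39.2% above, and nothing is read from that comparison. The raw minimum asks for a higher CPM in the shallower shFOXK2 replicate 1, which had 146 counts of AC090204.1, just under the minimum.

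AL391121.1 had the lowest ratio, with 421 and 372 shCtrl counts against 79 and 89 in shFOXK2, or 21.0 ± 3.04 and 5.22 ± 0.470 CPM. AC092118.1 had 185 and 150 counts against 20 and 55, or 8.82 ± 0.744 and 2.21 ± 1.14 CPM. AC004846.1 had 220 and 150 counts against 36 and 45, or 9.60 ± 0.366 and 2.5 ± 0.0415 CPM. The ratios of these 3 genes were 0.248, 0.251 and 0.261, and both shFOXK2 libraries lay far below both controls in each. AC092118.1 had uneven shFOXK2 libraries, and its log2 fold change of −1.97 was −2.67 with replicate 2 left out and −1.57 with replicate 1 left out.

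AL391422.3 had 295 and 244 shCtrl counts against 38 and 94 in shFOXK2, a ratio of 0.276. AC091982.4 had 175 and 166 counts against 50 and 49, a ratio of 0.341. AL118506.1 had 461 and 343 counts against 149 and 125, a ratio of 0.413. All 3 had shFOXK2 libraries below both controls. For AL391422.3 the log2 fold change was −1.84, with −2.44 when shFOXK2 replicate 2 was left out and −1.48 when replicate 1 was. No shCtrl-only gene had shCtrl replicates more than 2-fold apart, and the rule asked for 150 counts in both.

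**Figure D5:**
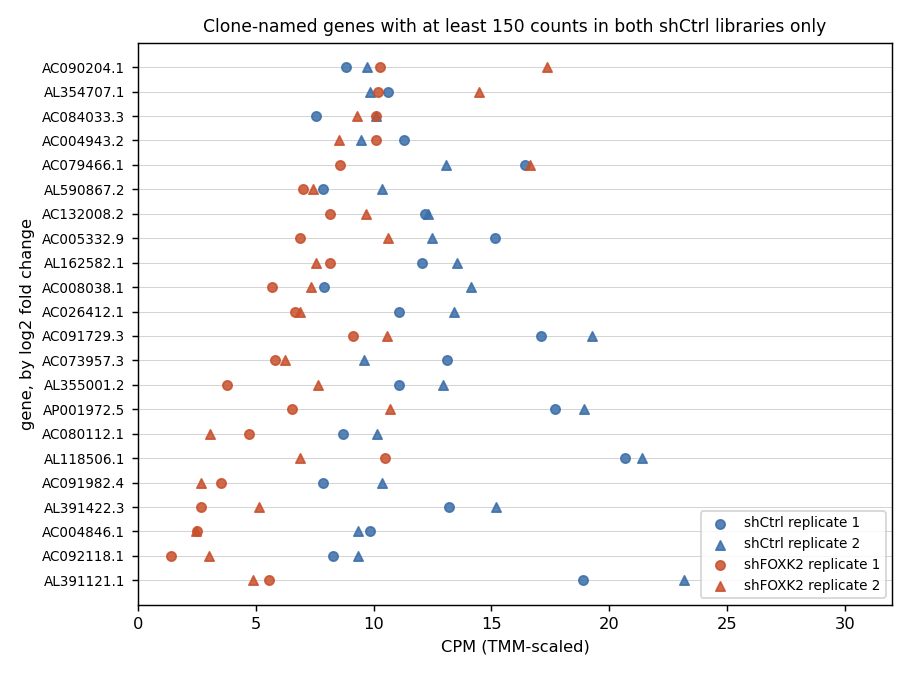
Each row is one of the 22 genes with at least 150 counts in both shCtrl libraries only, and each point is the CPM of one library. The 5 genes at the top have overlapping groups or, for AC090204.1, shFOXK2 libraries above the controls, and the rows below them have both shFOXK2 points to the left.

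Genes at the edge of the minimum show how the choice fell. Just inside, AP001157.1 had 170 and 101 shCtrl counts against 150 and 319 in shFOXK2, AC092747.4 had 63 and 13 against 150 and 307, and AC004846.1 had 220 and 150 against 36 and 45. Just outside, AC012313.1 had 174 and 147 shCtrl counts against 85 and 94 in shFOXK2, AC107375.1 had 73 and 54 against 143 and 285, and AL133367.1 had 234 and 143 against 26 and 48. Both directions thus occur on either side of the minimum.

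Other rows of the same clones gave a view that the choice of genes did not use, though the low-count filter could keep a row through a single group. Besides the 89, 11 tested rows shared a clone with one of the 21 genes, 9 with a gene of the shCtrl-only set and 32 with a gene of the shFOXK2-only set. Called higher in shFOXK2 were 5 of the 11, 4 of the 9 and 16 of the 32, and called lower were 1, 1 and 2 (53.1% higher and 7.71% lower over all tested clone-named rows, 25.7% and 22.7% over all tested genes). The counts are near those of the class in all 3 sets. The difference between the 3 sets was not tested.

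Rows of the same clone could differ in direction. AC005332.9, which was at 338 and 200 shCtrl counts against 98 and 193 in shFOXK2, shares its clone with AC005332.8, which had 14 and 12 against 45 and 56 counts (log2 fold change 2.18, SE 0.42, adjusted p = 0.000852). AC005332.7 of the same clone had 77 and 58 against 25 and 22 counts (−1.26, SE 0.39, adjusted p = 0.0161). AC004846.2 had 11 and 5 shCtrl counts against 21 and 25 in shFOXK2 (log2 fold change 1.77, SE 0.48), beside the higher shCtrl counts of AC004846.1. No test is given for AC004846.2, because its shCtrl counts alone would not have passed the low-count filter. AC005332.9 and AC004846.1 are of the shCtrl-only set, whose choice favours lower shFOXK2 counts. AC005332.8 and AC005332.7 were not chosen by that minimum. AC103702.1 was higher like AC103702.2, with 19 and 12 against 53 and 117 counts (2.66, SE 0.43, adjusted p = 0.00027). AC009948.5 had 0 and 0 shCtrl counts against 27 and 58 in shFOXK2, at least 15.8-fold higher, beside AC009948.1 with 141 and 64 against 211 and 288. These rows were named after their values were seen, and reads of overlapping rows cannot be told apart here because the strand setting of the counting is not given.

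Other noncoding genes were counted by their symbols for comparison, beside 25.7% higher and 22.7% lower over all tested genes. Among genes named LINC, long intergenic noncoding RNAs with an approved symbol, 57 of 192 tested were higher (29.7%) and 25 lower (13.0%). Among antisense genes, with symbols in -AS, 120 of 377 were higher (31.8%) and 39 lower (10.3%). By mean log2 CPM, genes without a clone name were called higher in 34.2% (under 0), 27.1% (0 to 1) and 23.9% (1 to 2). In the same bands 15.5%, 17.9% and 24.3% were called lower. The LINC and antisense genes were not split by band. Of the SNHG genes, which host small nucleolar RNAs in their introns, 15 of 19 were higher and 1 was lower. With at least 150 counts in all 4 libraries, 2 of 13 LINC genes were higher and 2 lower, 8 of 29 antisense genes were higher and 6 lower, and 7 of 10 SNHG genes were higher and 1 lower, beside 18.1% and 23.8% of all genes at that depth. Of the 21 clone-named genes of that depth 7 were higher and 1 lower, and the classes were not tested against each other.

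Genes that degrade noncoding RNA were examined as the related pathway. Of 26 nuclear RNA decay genes 14 were higher in shFOXK2 and the other 12 did not pass, beside 25.7% higher over all tested genes. Their median log2 fold change was 0.81 (0.04 over all tested genes). Over genes with at least 150 counts in all 4 libraries, 18.1% were higher, 23.8% lower and the median was −0.08. Several of the 26 decay genes encode the RNA exosome, the complex that trims and destroys nuclear transcripts. Of its 9 core subunits 6 rose, among them EXOSC8 and EXOSC9, which went from 22.7 ± 0.933 to 72.4 ± 3.67 CPM and from 18.2 ± 2.28 to 55.5 ± 3.32 CPM (log2 fold changes 1.68 and 1.60, adjusted p = 0.000164 and 0.000285). DIS3, a catalytic subunit, rose from 24.8 ± 9.02 to 73.0 ± 7.66 CPM (1.55, SE 0.29, adjusted p = 0.000787), while EXOSC10, a nuclease of the nuclear complex, was at 81.7 ± 7.15 and 68.0 ± 9.09 CPM (−0.27, adjusted p = 0.393).

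Cofactors that hand nuclear transcripts to the exosome were also among the 14. SKIV2L2, the helicase MTR4, rose by 0.97 on the log2 scale (SE 0.26, adjusted p = 0.00809). ZFC3H1, which connects that helicase to polyadenylated nuclear RNA, rose from 14.2 ± 9.79 to 50.9 ± 4.04 CPM (1.84, SE 0.39, adjusted p = 0.00181), with controls that differed widely. PABPN1, the nuclear poly(A)-binding protein, rose from 57.8 ± 2.05 to 205 ± 20.3 CPM (1.83, SE 0.24, adjusted p = 5.71e-05). ZCCHC8 and RBM7, which form the nuclear exosome targeting complex, had log2 fold changes of 0.46 and 0.16 that did not pass (adjusted p = 0.165 and 0.644). Of 10 genes of nonsense-mediated decay, the cytoplasmic pathway that removes transcripts with early stop codons, 3 were higher and 2 lower, close to the 48.4% called over all tested genes. UPF2, UPF3A and UPF3B rose, UPF3B the most (3.94, SE 0.31, adjusted p = 1.44e-06), and SMG6 and SMG8 fell by 1.53 and 1.57 on the log2 scale (adjusted p = 0.00055 and 0.00152). The clone-named rows and these genes come from the same 4 libraries, and whether the 2 patterns are related was not tested. The decay genes given by name were picked after their values were seen.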

How the data were processed

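Polyadenylated RNA of 4 OVCAR5 libraries was sequenced by the authors (single-end 50 bp). The authors aligned reads to hg38 with STAR 2.5.2 and counted them per gene with HTSeq. The deposited counts are raw and carry no normalization. The HTSeq version, strand setting and annotation are not given in the sources used here, and HTSeq usually drops reads that fit more than one place, so counts of near-identical or overlapping loci are uncertain.

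From these counts, low genes were removed with filterByExpr, libraries were scaled with TMM factors, and groups were compared in edgeR 4.0.16 (R 4.3.3) with its 2-sided quasi-likelihood F test. P-values were adjusted after Benjamini and Hochberg across the 16417 genes kept, and 0.05 was the threshold. SE is the size of the log2 fold change over the root of F. Tests were checked on simulated counts. Alternatives were DESeq2 1.42.0, its size factors, library size alone, no filter, 10 counts in every library, a replicate block, and leaving out each library. A crossed block was added after seeing the data. Deviations of same-numbered libraries were only weakly correlated, with a negative sign (r = −0.15 across genes), so the numbers were not taken as pairs.

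The genes and lists were chosen with earlier results of these data known. Named were FOXK2, the 10 genes with the largest summed counts, the 8 largest rises and up to 8 falls among genes with 150 counts in all 4 libraries, the 6 extreme ratios in each direction among the others, and 3 on each side of the minimum. Their positions and sequences were not analysed here.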

Additional observations from a re-analysis of the deposited data

How the results depend on the processing

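Of the 21 genes with at least 150 counts in all 4 libraries, 8 were called, and 6 to 8 under DESeq2, its size factors, library size alone, a minimum of 10 counts, the replicate block (6) and the crossed block (8). With no filter 5 were called, and 4 to 7 with one library left out. Their median log2 fold change of 0.41 was 0.31 with no filter, which shifted all tested genes by a median of −0.10, and 0.28 to 0.48 with one library left out. The cause was not tested. Calls over all clone-named rows numbered 1096 of 1803 (60.8%, beside 48.4% of all genes), 1039 with the replicate block (57.6% beside 44.3%), 796 of 3337 by DESeq2 (23.9% beside 34.3%), 1624 of 9509 with no filter (17.1% beside 26.3%) and 938 to 1234 with one library left out. A minimum of 10 counts in every library left 719 clone-named rows and 323 calls (44.9% beside 44.1%). It removes every row with fewer than 10 counts in any library, also rows that are sparse in both groups. The excess in calls was thus lost under that minimum and turned under DESeq2 and no filter, and was under 1 percentage point without either shCtrl library (44.7% beside 44.4%, 40.1% beside 39.6%). In every alternative run a larger share of clone-named rows than of all genes was called higher and a smaller share lower. Calls among LINC, antisense and SNHG genes of that depth numbered 26, and 15 to 24 with one library left out. The ratio of shares of 1.97 ran from 1.75 to 2.19 with one library left out. FOXK2 kept its direction and was not called in any alternative (−0.36 with the block). AL365181.3 (0.03) reversed to −0.048 by DESeq2 and −0.072 with no filter, and ran from −0.043 to 0.021 with one library left out. AC016747.1 (0.11) ran from −0.12 to 0.25, reversed without shCtrl replicate 1, and AC244153.1 (0.55) from −0.10 to 0.96, reversed without shFOXK2 replicate 2. Minimums of 100 and 200 counts gave 160 and 59 genes in place of 89. Depth limits the ratios of genes with few shCtrl counts.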
